A study of Mus musculus with 10 samples.

Results

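The Id family (Id1, Id2, Id3 and Id4) encodes helix-loop-helix proteins that have no basic region and so cannot bind DNA themselves. The members were chosen by symbol, as every non-control probe whose gene name in the scanner files is Id1, Id2, Id3 or Id4. The rule found 4 of the 55681 probes of the array, with 1 probe per gene, each printed in 1 spot. On the mm9 coordinates of the files, the probe of Id4 lies on the plus strand at chr13:48358668-48358727 and that of Id3 on the plus strand at chr4:135700075-135700249. The probe of Id1 lies on the plus strand at chr2:152563083-152563142 and that of Id2 on the minus strand at chr12:25778904-25778963. Which stretch of each transcript these probes cover was not determined, and no level of an Id probe is set here against that of another.

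ID proteins pair with E proteins, the broadly made basic helix-loop-helix (bHLH) partners TCF3, TCF4 and TCF12, and keep them from forming DNA-binding dimers with tissue-specific bHLH proteins. Their genes are well-known direct targets of BMP signalling through SMAD1, SMAD5 and SMAD9, and ID proteins are associated with proliferation and with delayed differentiation in many lineages. In the testis, Id4 has been proposed from reporter mice as a marker of the most primitive undifferentiated spermatogonia, but it is also made more widely, in spermatocytes and Sertoli cells among others.

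The study asked how FGF5, a mitogen made near the vessels of the testis, sets the number of GFRα1+ spermatogonia. Cultured germline stem (GS) cells, wild type, came from an intercross of C57BL/6 and ICR mice by the paper and from C57BL/6 by the labels. After 3 days deprived of GDNF and FGF2, they were kept for 24 hr with 100 ng/mL FGF5 (2 samples) or without it (2 samples), in 2 independent experiments. Sorted GFRα1+ cells were the GFP+ fraction of testes from GFRα1-EGFP knock-in mice of 2.5 months on a C57BL/6 background, either WT (3 samples) or Fgf5-/- (3 samples, the go-moja allele, called null below). Both genotypes of sorted cells thus carry the knock-in reporter, and neither labels nor methods say whether mice were pooled for a sample. The labels number the samples of a group, and equal numbers were not treated as pairs. A fit with replicate number as a block is given beside the FGF5 result and under processing.

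Each value is the log2 of the background-subtracted scanner signal minus the log2 of the 75th percentile signal of its array. A probe counts as measured on an array where the scanner software called it well above background, and it was tested where that held on every array of at least 1 group. Tests were limma fits across all tested probes with Benjamini-Hochberg adjustment, and a probe is called where the adjusted p is under 0.05. Between 62.9% and 65.2% of probes were well above background on the culture arrays and between 55.3% and 65.9% on the sorted ones.

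Null 1 stood apart from the other sorted samples. It had the highest share of probes well above background of all 10 arrays, 65.9%, where null 2 had 55.3% and null 3 had 55.6%. WT 1 to 3 lay between, at 59.5%, 61.6% and 56.2%. Its Fgf5 probe was well above background at a log2 value of -3.42, while null 2 (-6.83), null 3 (-6.90) and WT 1 to 3 (-5.47, -6.59, -6.66) were not. Whether that probe lies in the disrupted stretch of the gene is not given in the labels or methods, so it checks nothing of the genotype. Results of the sorted comparison are therefore given with and without null 1.

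Markers of the labelled cells were measured throughout. A list is called led by the gene whose probe was brightest, which is no ranking of abundance since probes respond differently, and its sum is to be read across samples and not against that of another list. All 6 of 6 germ cell markers were well above background on every array, with the probe of Mael the brightest, and their summed level (the sum of the linear values relative to the 75th percentile) was 203 and 212 with FGF5 and 213 and 228 without. In sorted cells that sum was 179, 184 and 179 in WT and 142, 179 and 182 in null, so null 1 was the lowest. Of 16 markers of undifferentiated spermatogonia, 15 and 15 were well above background with FGF5, 13 and 14 without, and 16 on each sorted array, with the probe of Zbtb16 the brightest. Their sum was 137 and 141 with FGF5, 132 and 136 without, 174, 164 and 170 in WT and 139, 161 and 159 in null. Shisa6, a defining marker, was at background on the 4 culture arrays. The markers of differentiating spermatogonia, 8 of 8 well above background and led by Sohlh1, Stra8 or Neurog3, summed to 150 and 140 with FGF5, 149 and 169 without, 207, 176 and 176 in WT and 176, 197 and 205 in null.

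Somatic cells were looked for in the same way. Endothelial markers, 4 to 6 of 8 well above background on each array, led by Vwf or Kdr and with Tie1 and Emcn at background everywhere, summed to 23.7 and 12.5 with FGF5, 22.5 and 15.2 without, 6.47, 5.88 and 6.92 in WT and 4.42, 6.85 and 5.97 in null. Peritubular and fibroblast markers, 5 to 9 of 10 well above background, led by Col1a1, summed to 14.5 and 6.27 with FGF5, 15.7 and 7.81 without, 4.88, 3.99 and 3.93 in WT and 5.46, 5.0 and 4.70 in null. For both lists the sums were larger in the cultures numbered 1 than in those numbered 2, with FGF5 and without. The peritubular and fibroblast sum followed Col1a1 (log2 values 3.48 and 1.57 with FGF5, 3.71 and 2.02 without), and Myh11 went the same way. Col1a2, Col3a1 and Dcn were higher in the cultures numbered 2 in both conditions, so the order of that sum does not read the cell type. Id1 and Id3 are also made by endothelial cells and fibroblasts, and fewer cells of a type and less RNA per cell cannot be told apart in bulk samples.

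Sertoli markers, 8 to 11 of 13 well above background, led by Wt1 in culture and by Clu in sorted cells other than null 1 (Rhox5), summed to 4.37 and 3.55 with FGF5, 4.14 and 2.78 without, 12.4, 8.14 and 9.29 in WT and 7.10, 10.1 and 10.6 in null. Among them Amh and Fshr were at background on all arrays, while others, Wt1, Clu, Rhox5, Gata4 and Inha among them, were well above background on every array. Leydig markers, 2 or 3 of the 6 with a probe well above background, led by Cyp17a1, summed to 6.65 and 5.01 with FGF5, 6.57 and 5.20 without, 1.77, 1.57 and 1.96 in WT and 0.430, 1.57 and 1.18 in null, with Cyp11a1, Hsd3b6 and Lhcgr at background everywhere. Macrophage markers, 3 to 5 of 7 well above background, led by Csf1r (Cd68 in null 1) and with Lyz2 and Cd163 at background everywhere, summed to 4.33 and 4.45 with FGF5, 3.90 and 3.67 without, 1.48, 1.81 and 1.99 in WT and 0.967, 1.90 and 1.83 in null. Later germ cell stages were listed too. Spermatocyte markers, 8 or 9 of 9 well above background, led by Sycp1 in culture and Sycp3 in sorted cells, summed to 25.3 and 29.9 with FGF5, 26.3 and 34.3 without, 25.7, 25.9 and 25.8 in WT and 28.4, 25.9 and 27.5 in null. Spermatid markers, 4 to 6 of 8 well above background, led by Odf2 and with Acrv1 and Odf1 at background everywhere, summed to 2.89 and 3.78 with FGF5, 3.04 and 4.26 without, 17.2, 16 and 14.3 in WT and 10.6, 16.9 and 24.3 in null. The part of all these cell types in the Id values was not tested.

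**Figure D1:**
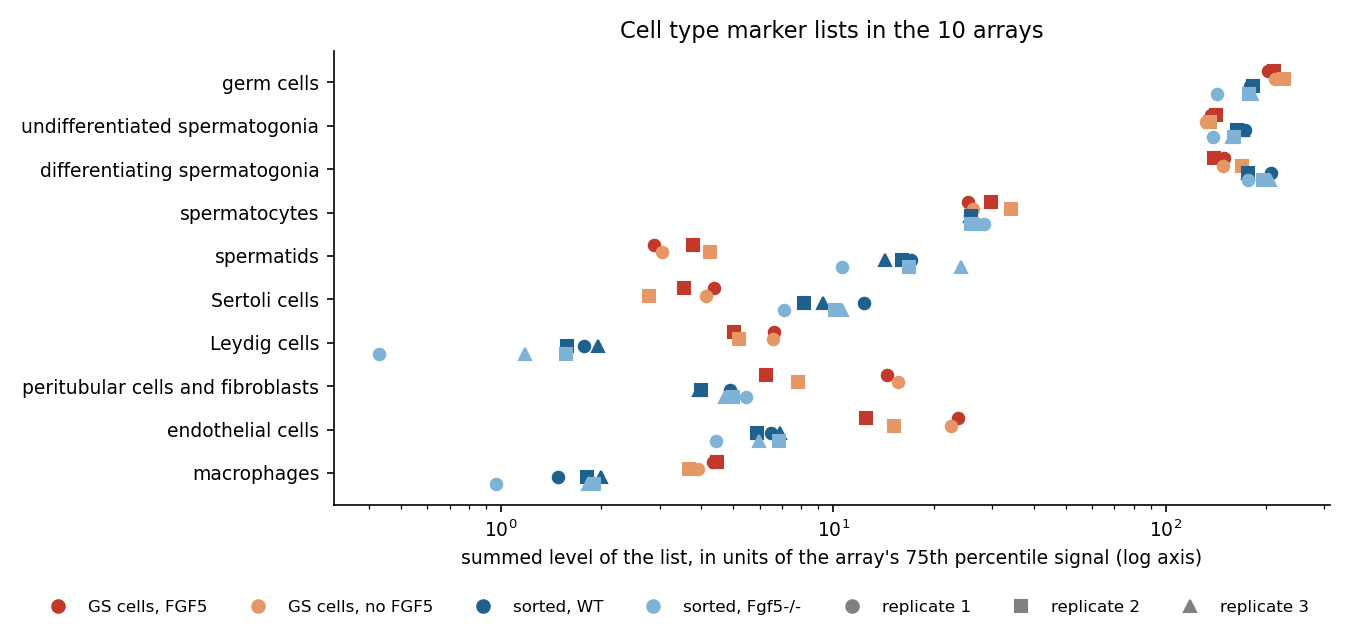
Summed level of each marker list (log axis, linear signal over the 75th percentile signal) in every sample. Null 1 had the lowest germ cell sum, 142, against 179 to 184 in WT.

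Promoters are shown for the Id genes with the largest values in the FGF5 and genotype comparisons, Id4 and Id3, since BMP-responsive elements upstream of Id genes are well described. The set of RefSeq promoters (GRCm38.p6) used here held those of 3 of the 4 genes, Id2, Id3 and Id4, and the promoter of Id1 was not sought elsewhere. The 250 bases before the transcript start were searched on both strands for GGCGCC (the palindrome of BMP-responsive elements), GTCT (the SMAD box), CCGGAA (an ETS core) and CANNTG (the E-box). Matches are in capitals below, and none overlapped another. Id3 is at chr4:136143572-136143821 and Id4 at chr13:48260866-48261115, both on the plus strand.
Id3: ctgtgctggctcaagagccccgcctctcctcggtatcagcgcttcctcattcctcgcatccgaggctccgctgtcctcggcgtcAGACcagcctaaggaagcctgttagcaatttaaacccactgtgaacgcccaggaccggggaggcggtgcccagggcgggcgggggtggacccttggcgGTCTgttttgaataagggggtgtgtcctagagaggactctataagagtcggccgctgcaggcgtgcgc
Id4: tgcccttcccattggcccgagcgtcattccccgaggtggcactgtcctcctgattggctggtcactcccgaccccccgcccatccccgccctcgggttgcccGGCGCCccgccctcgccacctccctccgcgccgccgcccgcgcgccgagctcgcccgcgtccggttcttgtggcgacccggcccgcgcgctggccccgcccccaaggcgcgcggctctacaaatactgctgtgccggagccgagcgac
Id4 holds GGCGCC 148 bases before the start and none of the other motifs, and 75.6% of its bases are G or C. Id3 holds the SMAD box at 166 and 68 bases before the start, none of the other motifs, and 62.8% G or C. Id2 holds GGCGCC at 231, the SMAD box at 23 and the E-box at 196. Over 32851 promoters of the same length, 9.59% hold GGCGCC, 82.9% GTCT, 12% CCGGAA and 66.2% CANNTG, and the median share of G or C is 52.4%. A match is a description of letters and not a site.

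Id4 had log2 values of 1.71 and 2.36 with FGF5 and 1.15 and 1.09 without FGF5. In sorted cells it had 2.38, 2.48 and 2.51 in WT and 2.27, 2.37 and 2.5 in null. The cultures without FGF5 were thus the lowest of all samples, and the sorted samples lay in a narrow band. The mean and SD were 2.03 and 0.46 with FGF5, 1.12 and 0.04 without, 2.46 and 0.07 in WT and 2.38 and 0.11 in null. The order from lowest to highest was without FGF5, with FGF5, null, WT, and of these neighbours only the cultured groups had ranges that did not overlap.

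Id3 had log2 values of 0.16 and 0.55 with FGF5 and -0.10 and -0.36 without, and in sorted cells 0.43, 0.84 and 0.63 in WT and -0.0034, 0.35 and 0.38 in null. Every WT sample was above every null sample. The mean and SD were 0.36 and 0.27 with FGF5, -0.23 and 0.19 without, 0.64 and 0.21 in WT and 0.24 and 0.21 in null. The order was without FGF5, null, with FGF5, WT, and of these neighbours only the cultures without FGF5 and the null cells had ranges that did not overlap.

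Id1 had log2 values of -0.26 and 0.0060 with FGF5 and -0.33 and -0.48 without, and in sorted cells -1.30, -1.39 and -1.38 in WT and -1.69, -1.45 and -1.40 in null. All 4 cultures lay above all 6 sorted samples. The mean and SD were -0.12 and 0.18 with FGF5, -0.41 and 0.11 without, -1.36 and 0.05 in WT and -1.51 and 0.15 in null. No neighbours in the order null, WT, without FGF5, with FGF5 overlapped. Null 1 had the lowest sorted value of Id1, of Id3 and of Id4.

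Id2 was at background on all 4 culture arrays (log2 values -5.40 and -5.08 with FGF5, -5.18 and -5.64 without). It was well above background in WT 1 and 2 (-5.01, -4.25; WT 3 -5.23 was not) and in null 1 and 2 (-4.88, -3.40; null 3 -4.99 was not). Since no group had it well above background on every array, Id2 was tested in no comparison. Its scanner signals were 11.5 to 18.9 in culture and 21.1 to 94.8 in sorted cells, near the floor of the measurement. No fold is given for Id2, since the sorted mean rested largely on null 2, and the order of its groups was not determined.

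**Figure D2:**
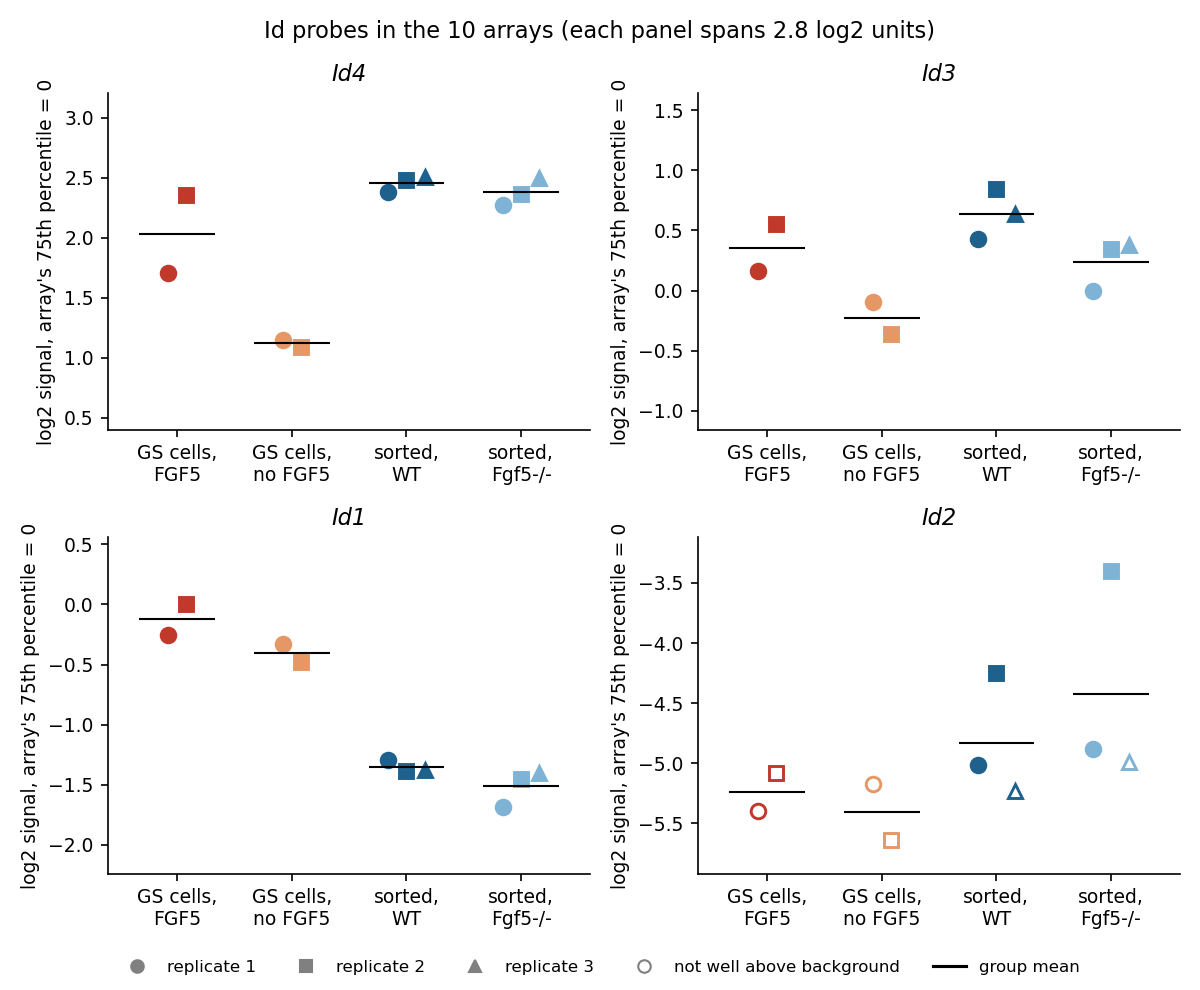
Log2 signal, scaled to each array's 75th percentile, for Id4, Id3, Id1 and Id2 by group. Circles, squares and triangles are replicates 1, 2 and 3, open symbols are arrays where the probe was not well above background, and bars are group means such as 2.46 for Id4 in WT.

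With FGF5 against without, 0 of the 3 Id probes tested were called by limma, where 0% of the 34611 probes tested were called, and 2 of 3 had an unadjusted p under 0.05, as did 882 probes (2.55%). With replicate number as a block, 2547 of these probes had an unadjusted p under 0.05 and 0 were called. All 3 Id probes were higher in both cultures with FGF5 than in both without; over all tested probes the groups did not overlap for 22.8%, with 8.17% higher and 14.6% lower with FGF5. The median change over all tested probes was -0.03. Id4 differed by a log2 of 0.91 (1.88-fold; SE 0.26, 95% interval 0.22 to 1.61; limma adjusted p = 1.0), at the 99.0 percentile of the changes of all tested probes, and 1.62% of probes had a change at least as large in either direction.

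Id3 and Id1 gave smaller differences. Id3 differed by 0.59 (1.5-fold; SE 0.22, 95% interval 0.01 to 1.16; limma adjusted p = 1.0). Id1 differed by 0.28 (1.22-fold; SE 0.18, 95% interval -0.20 to 0.76; limma adjusted p = 1.0). The difference between cultures of equal number was 0.56 and 1.27 for Id4, 0.26 and 0.91 for Id3, and 0.08 and 0.49 for Id1. The culture numbered 2 with FGF5 was the highest of the 4 cultures for all 3 genes, and leaving it out gave 0.59 for Id4, 0.39 for Id3 and 0.15 for Id1, while leaving out the culture numbered 1 with FGF5 gave 1.24, 0.78 and 0.41. Of 9 Sertoli markers tested, 8 had positive differences with FGF5, with a median of 0.46, 0 called by limma and 0 at an unadjusted p under 0.05, while their sums overlapped between the conditions. Of 15 markers of undifferentiated spermatogonia tested, 5 had an unadjusted p under 0.05 and 0 were called by limma, with 8 positive and a median of 0.07. T among them was at background in both cultures without FGF5, and Etv5, Bcl6b and Lhx1 are also in the list of FGF and GDNF response below. The count is therefore no separate reading of cell type. The sums of undifferentiated spermatogonia and of macrophages were higher in both cultures with FGF5 than in both without, and those of germ cells lower. The order of the first sum rested on Etv5 (3.05 and 4.32 with FGF5, 0.51 and -0.99 without). With Etv5 left out, that sum was lower in both cultures with FGF5 than in both without, so it does not read the cell type alone. Of 4 macrophage markers tested, 2 were positive and 2 negative, with a median of -0.02. The part of any of these cells in the Id differences was not tested.

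In null against WT cells, 0 of the 3 Id probes tested were called by limma, where 0% of the 30275 probes tested were called, and 1 of 3 had an unadjusted p under 0.05, as did 2051 probes (6.77%). Id3 and Id1 did not overlap between the genotypes, with every null sample lower; over all tested probes 16.2% did not overlap, 9.19% with null lower. The median change over all tested probes was -0.03. Id3 differed by -0.40 (0.760-fold; SE 0.16, 95% interval -0.79 to -0.0054; limma adjusted p = 0.729). Without null 1 the same difference was -0.27 (SE 0.14, 95% interval -0.63 to 0.09; limma adjusted p = 0.614), and the groups still did not overlap.

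Id1 and Id4 were close between the genotypes. Id1 differed by -0.16 (SE 0.12, 95% interval -0.44 to 0.12; limma adjusted p = 0.765), and by -0.07 without null 1 (limma adjusted p = 0.783). Id4, the proposed stem cell marker, differed by -0.08 (SE 0.11, 95% interval -0.34 to 0.18; limma adjusted p = 0.854), with overlapping groups, and by -0.02 without null 1 (limma adjusted p = 0.938). Without null 1, 6 of 30325 probes were called, 0.0198% and all higher in null, none of them an Id probe, and 2743 had an unadjusted p under 0.05. Markers of undifferentiated spermatogonia had a median difference of -0.18 between the genotypes, with 14 of 16 negative, 0 called by limma and 4 at an unadjusted p under 0.05 (-0.19, 12 of 16 and 6 without null 1), and every null sum was below every WT sum. That separation rested on Etv5, which is also in the list of FGF and GDNF response below. With Etv5 left out, the sums of null 2 and null 3 lay above that of WT 2, so the sum does not read the cell type alone. Etv5 had 5.28, 5.44 and 5.41 in WT and 4.90, 5.15 and 5.14 in null. The germ cell marker sum was lowest in null 1 too, and the part of either marker list in the Id values was not tested.

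**Figure D3:**
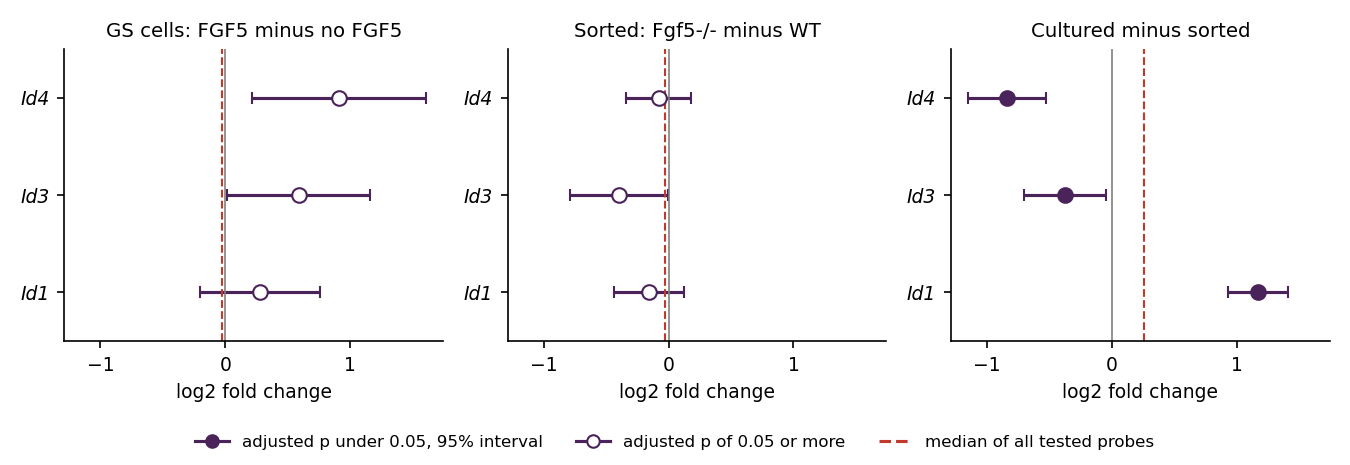
Log2 change with its 95% interval for Id4, Id3 and Id1 in the comparisons of FGF5, of genotype and of material. Filled points have an adjusted p under 0.05, and dashed lines are the median over all tested probes, 0.26 in the comparison of material.

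Cultured against sorted cells were compared as the mean of both culture groups against the mean of both sorted groups. Slide, scan and material differ together here, as do the knock-in reporter of the sorted cells and, by the paper, the strain. Every culture had also been deprived of GDNF and FGF2 for 3 days, and the group without FGF5 received none after that. These cannot be told apart. The median change over all 35809 tested probes was 0.26, so changes are also given relative to it. Limma called 67.6% of these probes, 41.9% higher and 25.7% lower in culture, and 55.7% did not overlap between the materials, 34.7% with culture higher. All 3 Id probes tested were called, 1 higher and 2 lower in culture, which against shares of this size is close to the background. Marker lists moved between the materials too. Peritubular and fibroblast markers had 7 of 9 tested called higher in culture and 1 lower (median 1.57), and macrophage markers 4 of 4 higher (0.94). Endothelial markers had 3 of 6 higher and 2 lower (0.54). Undifferentiated spermatogonia markers had 4 of 16 higher and 10 lower (-1.86), and Sertoli markers 1 of 11 higher and 7 lower (-0.75). The part of these cells in the Id changes was not tested.

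Id1 had lowest, median and highest values of -0.48, -0.29 and 0.0060 in culture and -1.69, -1.39 and -1.30 in sorted cells, without overlap. It was higher in culture by 1.17 (2.25-fold; SE 0.10, 95% interval 0.93 to 1.41; limma adjusted p = 3.39e-05), or 0.91 relative to the median change. Without null 1 it was 1.13 (adjusted p = 5.52e-05). Against WT alone, within the same fit of 10 arrays, Id1 was higher by 1.23 with FGF5 (limma adjusted p = 4.06e-04) and by 0.95 without FGF5 (adjusted p = 0.00115), where 51.0% and 54.6% of probes were called.

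Id4 had lowest, median and highest values of 1.09, 1.43 and 2.36 in culture and 2.27, 2.43 and 2.51 in sorted cells, with culture 2 with FGF5 inside the sorted range. Its change in culture was -0.84 (0.559-fold; SE 0.14, 95% interval -1.15 to -0.53; limma adjusted p = 7.38e-04), or -1.10 relative to the median change, and -0.87 without null 1 (adjusted p = 0.00124). Against WT alone it was -1.34 without FGF5 (limma adjusted p = 7.87e-04) and -0.42 with FGF5 (adjusted p = 0.0958), so the call was lost with FGF5.

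Id3 had lowest, median and highest values of -0.36, 0.03 and 0.55 in culture and -0.0034, 0.41 and 0.84 in sorted cells, with overlap. Its change in culture was -0.37 (0.771-fold; SE 0.14, 95% interval -0.70 to -0.05; limma adjusted p = 0.0436), or -0.63 relative to the median change. The call was lost on leaving out, in turn, culture 1 with FGF5 (-0.28, adjusted p = 0.158), culture 1 without FGF5 (-0.44, adjusted p = 0.0523), culture 2 without FGF5 (-0.31, adjusted p = 0.140), WT 2 (-0.32, adjusted p = 0.0916), WT 3 (-0.38, adjusted p = 0.0764), null 2 (-0.35, adjusted p = 0.0892) or null 3 (-0.34, adjusted p = 0.0876). Without null 1 it was -0.44 (limma adjusted p = 0.0206). Against WT alone it was -0.87 without FGF5 (adjusted p = 0.00719) and -0.28 with FGF5 (adjusted p = 0.273).

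Whether the members changed by different amounts was tested from the differences between pairs of members within each array, by exact permutation over samples, with adjustment over the 9 tests; pairs with Id2, at background in culture, were not tested. In culture, with minus without FGF5 was 0.31 for Id3 minus Id1, 0.63 for Id4 minus Id1 and 0.32 for Id4 minus Id3 (each exact p = 0.333, the smallest possible with 6 splits; adjusted p = 0.375). In sorted cells, null minus WT was -0.24 for Id3 minus Id1 (exact p = 0.3, adjusted p = 0.375), 0.08 for Id4 minus Id1 (exact p = 0.4) and 0.32 for Id4 minus Id3 (exact p = 0.1, the smallest possible with 20 splits; adjusted p = 0.225). For the materials, Id3 minus Id1 was -1.54 and Id4 minus Id1 was -2.01 (each exact p = 0.00476, the smallest possible with 210 splits; adjusted p = 0.0214), and Id4 minus Id3 was -0.47 (exact p = 0.0190, adjusted p = 0.0571). Id1 thus changed differently between the materials than Id3 and Id4 did.

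Around the Id members stand lists of genes of their pathway, described here by counts and medians, to be read beside the 41.9% higher and 25.7% lower called between materials over all tested probes and beside the medians over all tested probes (-0.03 for FGF5, -0.03 for genotype and 0.26 for material; -0.0033 for genotype without null 1). No gene of these lists was called by limma for FGF5 or genotype; counts at an unadjusted p under 0.05 are given where they were above 0. Folds given as at least a value, and medians given as raised, set each array at background on the lower side to the larger of the measured value and the lowest level at which any probe of that array was well above background, and leave the brighter side as measured. Over all tested probes an unadjusted p under 0.05 was found for 2.55% with FGF5 and 6.77% between genotypes (9.05% without null 1). With replicate number as a block the count went from 882 to 2547 with FGF5 and from 2051 to 1561 between genotypes. Differences were positive for 41.4% with FGF5 and negative for 56.0% between genotypes (50.8% without null 1). The E proteins, the direct partners of ID proteins, had a median of 0.02 with FGF5 and of -0.12 between genotypes (-0.13 without null 1). Between materials 2 of 3 were lower in culture, Tcf4 (-0.67, limma adjusted p = 0.0012) and Tcf12 (-0.43, adjusted p = 0.0054), and the list median was -0.43; without null 1 all 3 were called lower.

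The partners of the E proteins, 13 tested bHLH genes of spermatogonia and other lineages, had a median of -0.03 with FGF5 (Tcf15 0.56, Lyl1 0.45, Neurog3 -0.28, Sohlh1 -0.19) and 12 tested had -0.0073 between genotypes (0.04 without null 1, with 1 at an unadjusted p under 0.05). Between materials 4 of 14 were higher in culture and 6 lower, with a median of 0.04 that turned to -0.11 when raised. Without null 1, 6 were higher and 5 lower with a median of -0.02, and when scaled to the percentile of only the probes well above background 5 were higher and 4 lower, so the balance was not settled. Neurog3 and Figla were higher by 1.29 and 1.28, Msc by at least 1.6-fold (measured on 3 of 4 culture arrays and no sorted array), and Ascl2 (-2.55) and Twist2 (-1.36) were lower. Tal1, at background in culture, was at least 2.75-fold higher in sorted cells. The Hes and Hey repressors, another family of bHLH factors, had medians of -0.07 with FGF5 and -0.08 between genotypes with 1 of 7 at an unadjusted p under 0.05 (-0.09 and 1 of 7 without null 1). Between materials 3 of 7 were higher in culture (Heyl 1.92, Hes1 1.75, Hes7 0.89) and Hes6 was lower (-0.82).

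The BMP ligands, upstream of Id transcription, had a median of 0.08 over 7 of 12 tested with FGF5 (Bmp6 0.92, Bmp4 0.69; 1 at an unadjusted p under 0.05) and of -0.15 over 8 between genotypes (-0.11 raised; -0.21 without null 1, with 1 at an unadjusted p under 0.05). Between materials 4 of 8 were higher in culture (Bmp8b 1.33, Gdf5 1.20, or 1.09 raised and measured on 8 of 10 arrays, Gdf7 0.81) and 4 lower (Bmp7 -2.92, Bmp6 -1.54, Bmp4 -1.24), with a median of -0.23, or -0.11 raised, since Bmp2 was at background on all culture arrays. Under quantile normalization 2 of 8 were higher. The 10 receptors and co-receptors had medians of -0.07 with FGF5 and -0.11 between genotypes (-0.04 without null 1), and between materials 5 were higher (Acvr1 2.03, Rgma 1.67, Acvrl1 1.16) and Bmpr2 lower (-0.53). Of the SMADs that carry the signal, Smad9 was at background everywhere, and the other 3 had medians of -0.08 with FGF5 and 0.02 between genotypes (0.06 without null 1), with Smad5 higher in culture than in sorted cells (0.55) and Smad4 (-0.49) and Smad1 (-0.40) lower.

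BMP inhibitors include Smad6 and Smad7, which are BMP targets themselves. With FGF5, 13 of 17 were tested with a median of -0.0033, and 2, Smad6 and Smad7, had an unadjusted p under 0.05. Smad6 had -1.94 and -0.24 with FGF5 and -2.73 and -2.68 without, a difference of 1.61 (limma adjusted p = 1.0), and Smad7 had -0.13 and 0.18 against -0.42 and -0.82, a difference of 0.64 (limma adjusted p = 1.0). Both were highest in the culture numbered 2 with FGF5, as were Id4, Id3 and Id1. Between genotypes the median over 16 was -0.14 (-0.10 without null 1), with 2 at an unadjusted p under 0.05, and 4 without null 1. Nog had -0.94, -0.69 and -0.51 in WT and -3.05, -1.13 and -1.38 in null, a difference of -1.14 that was -0.55 without null 1. Smad7 differed by -0.26 between genotypes (limma adjusted p = 0.729) and by -0.27 without null 1. Between materials 1 of 16 inhibitors was higher in culture (Chrd 1.25), 6 when scaled to the percentile of only the probes well above background and 2 without null 1, and 8 lower in each, with a median of -0.37 (-0.36 raised), among them Smad6 (-2.50) and Fst (-1.78). The other BMP targets had medians of -0.23 with FGF5 (Dlx5 -0.50, Msx2 0.40, Atoh8 -0.36), -0.08 between genotypes (-0.14 without null 1) and 1.33 between materials, or 0.87 raised. Dlx5, measured on 2 of 6 sorted arrays, was at least 2.30-fold higher in culture, Msx2 and Msx1 were higher by 2.11 and 0.55, and Atoh8 was lower (-2.67).

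Factors that act on ID proteins or downstream of them were the list of ubiquitin and pocket protein genes and the CDK inhibitors, which include known targets of E proteins held down by ID proteins. The ubiquitin and pocket protein list had medians of -0.02 with FGF5 and -0.0051 between genotypes, with 2 of 6 at an unadjusted p under 0.05 (0.0029 and 1 of 6 without null 1). Between materials 1 of 6 was higher (Rb1 0.42, not called without null 1) and 5 lower, with Usp1 at -0.71, Rbl1 at -0.57 and Rbl2 at least 1.29-fold higher in sorted cells (measured on 4 of 6). The CDK inhibitors had a median of 0.04 with FGF5 and of -0.32 between genotypes, where all 5 had negative differences, 2 had an unadjusted p under 0.05 and the median was -0.21 without null 1, again with 5 negative and 2 under 0.05. Cdkn1a, which encodes p21, had -0.89, -0.56 and -0.77 in WT and -1.49, -1.52 and -1.54 in null, a difference of -0.78 (limma adjusted p = 0.729), and of -0.79 without null 1. Cdkn2a differed by -0.40 (limma adjusted p = 0.729), and by -0.36 without null 1. Between materials 0 of 5 were higher and 3 lower (Cdkn1c -1.30, Cdkn2a -0.52, Cdkn1b -0.38), or 2 lower under quantile normalization, with a median of -0.38.

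As a yardstick, 8 genes known to respond to FGF or GDNF were listed beside the Id members. With FGF5 all 8 had positive differences, 0 were called by limma and 7 had an unadjusted p under 0.05, with a median of 3.40, or 3.18 with Spry4, at background in both cultures without FGF5, at its bound of at least 6.38-fold. Dusp6 had 2.25 and 4.06 with FGF5 and -1.33 and -1.53 without, a difference of 4.59, and Etv5 had 3.05 and 4.32 against 0.51 and -0.99, a difference of 3.93. All 8 were highest in the culture numbered 2, which also had the highest Id4, Id3 and Id1. The median over the 3 Id probes was 0.59. Between genotypes 7 of 8 were negative and 1 positive, 3 had an unadjusted p under 0.05, with a median of -0.17 (-0.24 without null 1, again with 3 under 0.05), where the median over the Id probes was -0.16, and -0.07 without null 1. Lhx1 differed by -0.58 (-0.74 without null 1), Etv5 by -0.31 (-0.23), Dusp6 by -0.28 (-0.24) and Spry2 by 0.21, which turned to -0.36 without null 1. Between materials 7 of 8 were lower in culture, with a median of -2.92 (Dusp4 -3.79, measured on 3 of 4 culture arrays, Dusp6 -3.64, Etv5 -3.50), where the Id probes had a median of -0.37.

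**Figure D4:**
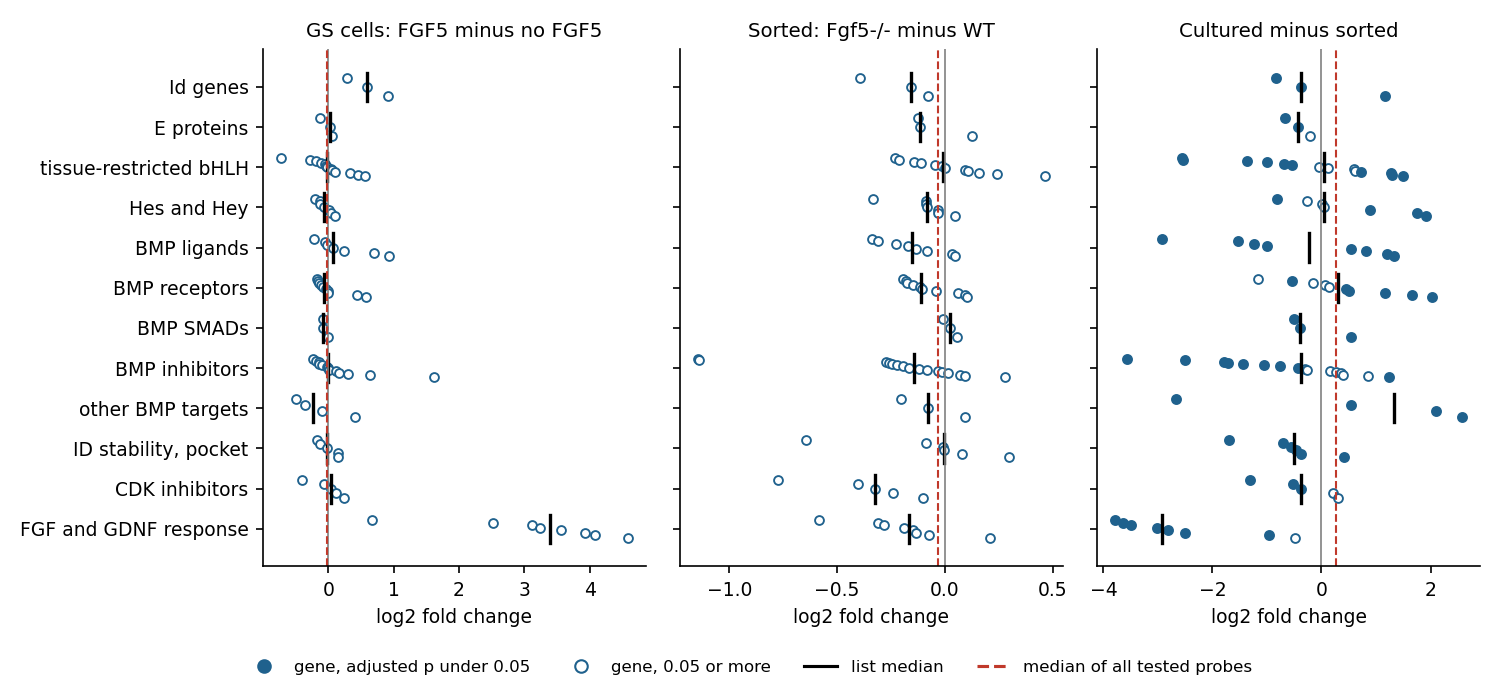
Log2 change of each gene in 12 lists in the comparisons of FGF5, genotype and material, whose horizontal axes differ. Filled points have an adjusted p under 0.05, black bars are list medians such as 3.40 for the FGF and GDNF response with FGF5, and red dashed lines are the median over all tested probes; arrays at background are as measured.

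Genes whose pattern over the 10 arrays lay nearest each Id gene were sought among 19936 named probes well above background on every array, by the root mean square (RMS) difference between centred log2 profiles. For Id4 they were Hpca (0.124), Ier2 (0.143) and Pomp (0.145), where the median gene was at 0.571. For Id3 they were Rhoc (0.101), Phgdh (0.138) and Cd151 (0.143), against a median of 0.460. For Id1 they were H2-DMa (0.0947), Cap1 (0.101) and Fam20b (0.102), against a median of 0.661. Id3 ranked 494 among the genes nearest Id4 (RMS 0.303), and Id4 ranked 2068 among those nearest Id3, while Id1 was far from both (0.777 from Id3 and 1.01 from Id4). The measure says nothing of shared function or control.

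**Figure D5:**
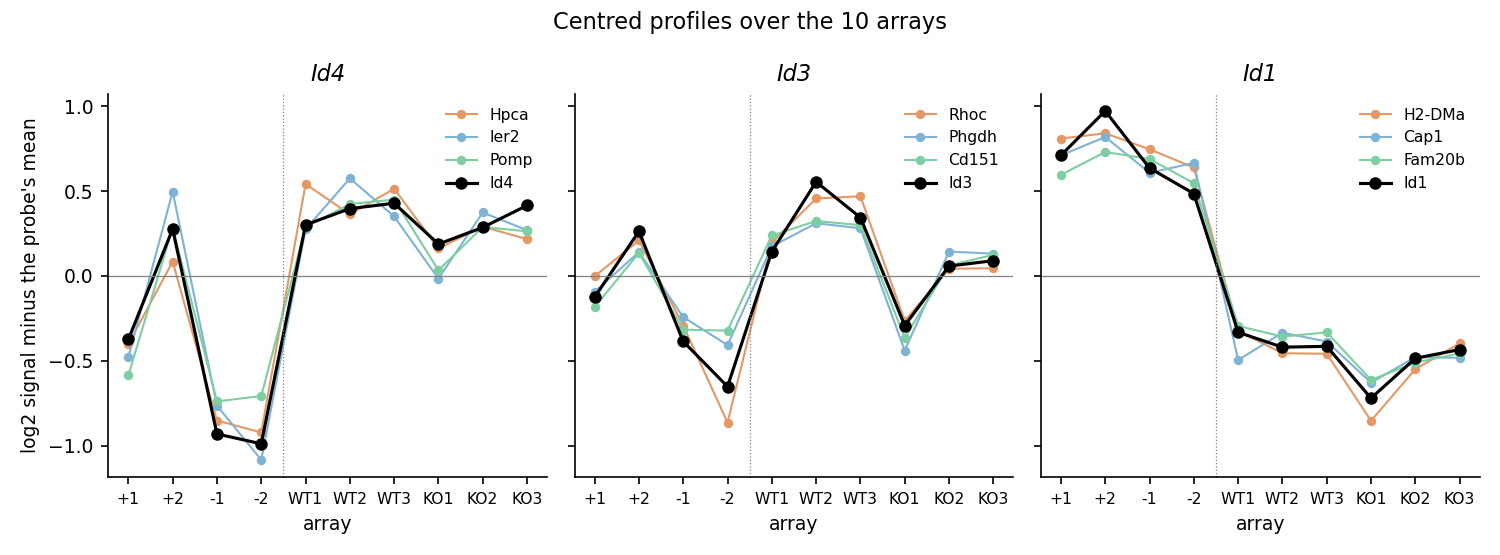
Centred log2 profiles of Id4, Id3 and Id1 over the 10 arrays, each with its 3 nearest genes. The vertical axis is the log2 value minus its mean over the arrays, and the nearest gene to Id1, H2-DMa, lay at an RMS of 0.0947.

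Gfra1, the receptor gene whose promoter marks the sorted cells, had log2 values of -2.53 and -0.52 with FGF5 and -4.07 and -2.09 without, and lay between 0.58 and 0.89 in the sorted samples. The cultures numbered 2 were higher for Gfra1 within both conditions, while for Id4 and Id3 the culture numbered 2 was higher with FGF5 and lower without it.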

How the data were processed

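Gene expression was measured on 10 one-colour Agilent 8x60K mouse arrays. The authors deposited scanner output, in which each spot has a background-subtracted intensity on a linear scale, and a normalized table of log2 values that differ from the log2 of that intensity by a constant per array for probes printed once. The file headers name Feature Extraction 10.7.1.1 and the submitters' notes 10.7.3.1. The tools were R 4.3.3 and, within it, limma 3.58.1. Signals were floored at 1 (0 lay under it), 117 to 205 uneven or outlier spots per array were left out, spots of a probe were averaged, and the 75th percentile over non-control spots was subtracted. That percentile lay between 576 and 1093 scanner units.

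Culture and sorted samples were fitted separately with lmFit and eBayes, and the materials over group means of all 10 arrays. A probe at background in a whole group was given as a bound as the report describes. Genes named were, for lists without calls, up to 4 of largest absolute change among those well above background on every array compared, and for calls, the largest in each direction. Python 3.11.15 with matplotlib 3.10.9 drew the figures. Alternatives were other scalings, background corrections, filters, an intensity trend, replicate number as a block, and leaving out each array. The procedure was tested on simulated data. Members and lists were chosen with earlier results of these data known.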

Additional observations from a re-analysis of the deposited data

Results flagged for a closer look

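The summed level of germ cell markers was 142 in null 1, far from the other null samples (179 and 182) and from WT (179, 184 and 179). Id1, Id3 and Id4 also had their lowest sorted values in this sample, and the part of the germ cell level in those values was not tested. Chance sets apart a sample in about 1 in 20 groups, and 1 of 20 checks of marker sums did so, against 0 of 6 checks of Id values.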

How the results depend on the processing

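No Id result reversed its direction under any setting. With FGF5, 0 probes were called in all 15 settings and Id4 ranged from 0.59 to 1.24, Id3 from 0.39 to 0.78 and Id1 from 0.15 to 0.41. Between genotypes Id3 ranged from -0.50 to -0.27, Id1 from -0.21 to -0.07 and Id4 from -0.14 to -0.0079 over 17 settings, with 0 Id probes called. The count of called probes there went from 0 to 6 on leaving out an array: 6 without null 1, 5 without null 3 (Sash3, Grin3a, Ceacam2, 5830415G21Rik and a noncoding region on chr8), 1 without WT 2 (Kcnq5) and 1 without WT 3 (a noncoding region on chr2), and 0 otherwise; these names fall outside the naming rule and were taken after seeing the counts. With replicate number as a block, 0 probes were called in either comparison (smallest adjusted p 0.151 and 0.886), and probes at an unadjusted p under 0.05 went from 882 to 2547 with FGF5 and from 2051 to 1561 between genotypes; with FGF5 the adjusted p was then 0.552 for Id4, 0.662 for Id3 and 0.777 for Id1. Between materials Id1 kept its call in all 21 settings (0.95 to 1.30), with 17959 to 25678 probes called. Id3 lost its call with the percentile over probes well above background (-0.24, adjusted p = 0.129), with no filter (-0.37, adjusted p = 0.0793), in a separate fit of cultures with FGF5 and WT (-0.28, adjusted p = 0.276), and in 7 of 10 leave-outs (-0.44 to -0.28, adjusted p 0.0523 to 0.158; over all 10, -0.47 to -0.28, adjusted p from 0.0206). Among these 21 settings Id4 lost its call only in that separate fit (-0.42, adjusted p = 0.159), where 1 Id probe was called. Within the fit of 10 arrays, cultures with FGF5 against WT also gave no call for Id4 (-0.42, limma adjusted p = 0.0958) or Id3 (-0.28, limma adjusted p = 0.273). The cause of these losses was not tested beyond the fewer arrays used. BMP inhibitors higher in culture went from 1 to 6 with the percentile over probes well above background. Id2 lies too near background for any of this to measure.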
